A study of Drosophila melanogaster with 2 samples.

Results

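The vacuolar ATPase (V-ATPase) genes of Drosophila melanogaster were examined for binding of the oestrogen-related receptor ERR near their transcription starts. Members were the protein-coding genes of the Ensembl BDGP6 annotation whose symbols begin with Vha followed by a digit or by AC, which gave 26 genes of 13945 protein-coding genes on the main chromosome arms. They were divided into 11 main subunit genes, 1 for each subunit that the naming rule covers, and 15 paralogues. The H, c″ and e subunits fall outside the rule, and their genes are given apart. The main gene was the one with no suffix or the one numbered as the first copy, except for the A and a subunits, where Vha68-2 and Vha100-2 were taken. Gene counts and levels below are descriptions of 1 group, and no p-value is given.

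The data were chromatin immunoprecipitation with sequencing (ChIP-seq) of whole embryos of mixed sex, collected at 0 to 24 h of development. All embryos came from 1 transgenic line that stably expresses ERR with green fluorescent protein joined to its C-terminus (ERR-eGFP), and the tag was the target of the antibody. The 2 biological replicates, numbered 2 and 3, form a single group, and no untagged or input sample was used here. Whether the line also keeps an untagged copy of ERR is not given in the sources used here. In whole embryos, binding in fewer cells and weaker binding in many cells cannot be told apart.

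The V-ATPase is a rotary proton pump that acidifies lysosomes, endosomes and secretory vesicles, and it energises the apical membranes of transporting epithelia such as the Malpighian tubule. Its soluble V1 sector hydrolyses ATP, and its membrane V0 sector carries protons across the lipid bilayer. In the fly most subunits have 1 broadly transcribed gene, several have further copies with narrower expression, and the transcription factor Mitf is known to activate many V-ATPase genes through E-box-like sites.

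ERR-eGFP peaks lay at the promoters of several main subunit genes and 1 paralogue, and the highest signals within 500 bp of a start were at the genes for the B and a subunits. The a subunit value rests on that reach: with promoters of 200 bp the highest region of Vha100-2 had a signal of 65.8, at rank 3187 and below the optimal set. Main genes and paralogues are set side by side by their counts, with no test of the difference between them. An optimal peak, that is, one in the set that the authors kept as reproducible, had its summit within 500 bp of a start in 5 of 11 main genes (45.5%) and 1 of 15 paralogues (6.67%). The share was 6 of all 26 members (23.1%) and 15.1% of all protein-coding genes. Main genes with an optimal peak were Vha55, Vha100-2, Vha36-1, Vha16-1 and Vha44, and the paralogue was Vha68-1. Among genes with such a peak, the median signal in the peak caller's units was 123 for the 5 main genes and 102 for all 2105 genes.

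The counts of main genes also stood above those of paralogues in the longer, relaxed lists of 30000 regions each. The pooled one was deposited as peaks and background, so a region in it is not in itself a sign of binding. Some regions counted had a −log10 q-value below 1, such as 0.874 at Vha68-2 in the pooled list and 0.347 at Vha14-1 in replicate 3. A region of any height in the pooled list lay at 10 of 11 main genes (90.9%) and 7 of 15 paralogues (46.7%), 17 of 26 members in all (65.4%), beside 56.0% of all genes. Among genes with such a region the median pooled signal was 75.4 for main genes and 24.5 for paralogues, and 44.6 for all genes. The 2892 highest regions of each replicate, a number equal to the optimal set, were then counted in the same way. Replicate 2 alone placed one at 5 main genes, 2 paralogues and 15.7% of all genes. Replicate 3 alone placed one at 4 main genes, 0 paralogues and 14.2% of all genes.

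**Figure D1:**
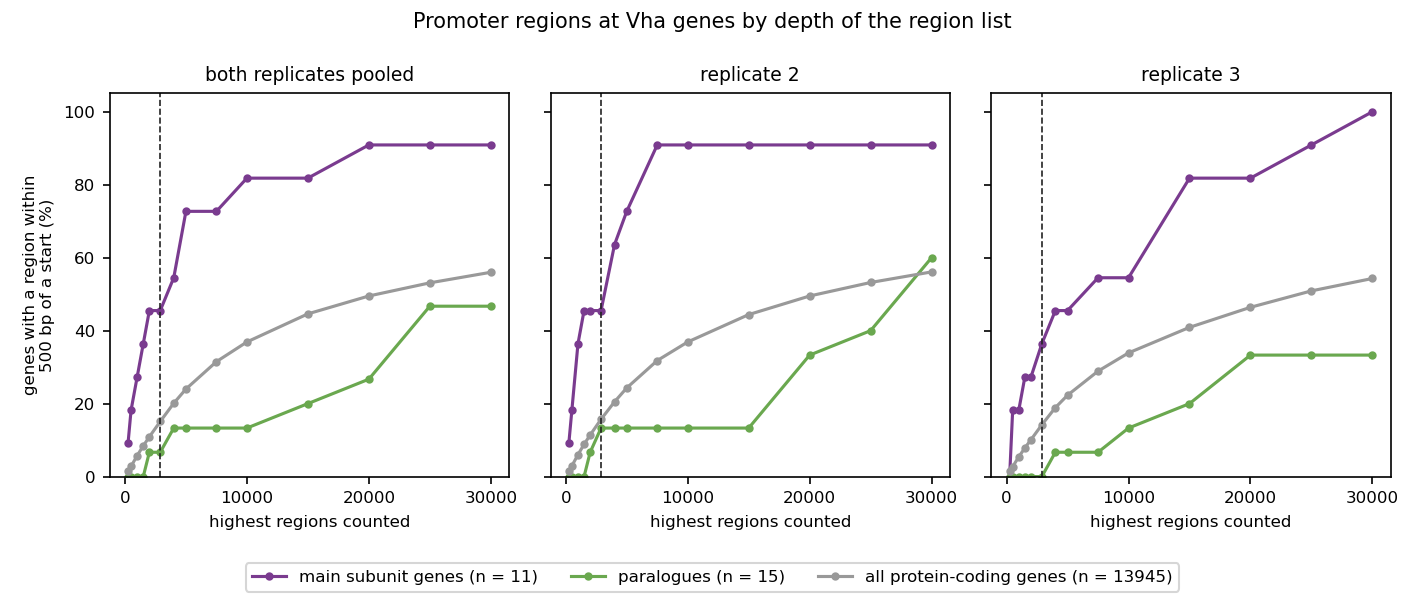
Share of genes (%) with a region summit within 500 bp of a start against the number of highest regions counted, for the pooled list and each replicate list; lines are the 11 main subunit genes, the 15 paralogues and all 13945 protein-coding genes, and the dashed line marks 2892 regions. At 5000 pooled regions 72.7% of main genes, 13.3% of paralogues and 24.0% of all genes had one.

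Adding weaker regions widened the gap at first. With the 5000 highest pooled regions the count was 8 of 11 main genes and 2 of 15 paralogues. Replicate 2 gave the same 2 counts at that depth, and replicate 3 gave 5 main genes and 1 paralogue. Main genes were above all genes at 5000 regions in each list, with 72.7% beside 24.3% in replicate 2 and 45.5% beside 22.3% in replicate 3. Paralogues stood below all genes at 5000 regions in the pooled list and in both replicates. The exception at full length was replicate 2, where 9 of 15 paralogues, beside 56.1% of all genes, had a region of any height.

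Among the members, the A subunit, which holds the catalytic ATP-binding sites of V1, was the 1 subunit whose paralogue had the higher signal. Vha68-1 (FBgn0265262) had a promoter signal of 83.5 in the pooled list, 51.6 in replicate 2 and 32.1 in replicate 3, with ranks of 2000, 1846 and 2944 in those lists. Vha68-2 (FBgn0263598), the main gene, had 26.5 pooled, 27.9 in replicate 2 and 16.9 in replicate 3, with ranks of 15197, 5857 and 10764. Vha68-1 was therefore higher in every list, and the ranges of the 2 genes over the replicates do not overlap. The Vha68-1 peak, at chr2L:13003953-13004356 (dm6), had an intergenic summit 48 bp upstream of its single start. The same peak lay 325 bp upstream of mTor, which encodes the growth-regulating kinase TOR and is read from the opposite strand, with 373 bp between the starts. Vha68-3, the other A paralogue, had a pooled signal of 19.6 in its coding sequence, 12.4 in replicate 2 and no region in replicate 3.

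The intergenic stretch from the Vha68-1 start towards mTor is shown because it carries the summit of the 1 optimal peak at a paralogue. The rest of that peak lies inside Vha68-1 and is not shown. It is chr2L:13004108-13004407 of dm6, read from the minus strand, the strand of Vha68-1, so that its last base lies next to the Vha68-1 start. It has no capitals because it holds no match to any motif searched. Nor was a match found within 250 bp of the summit on either side, a window that takes in the whole peak.
Vha68-1: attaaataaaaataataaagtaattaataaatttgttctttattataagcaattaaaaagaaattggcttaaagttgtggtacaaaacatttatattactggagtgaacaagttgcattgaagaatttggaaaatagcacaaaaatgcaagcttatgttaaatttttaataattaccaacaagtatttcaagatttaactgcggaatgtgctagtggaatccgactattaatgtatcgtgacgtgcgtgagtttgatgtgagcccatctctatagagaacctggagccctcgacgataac

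The B subunit, the non-catalytic partner of A in the V1 head, is encoded by a single gene, Vha55 (FBgn0005671), and had the highest signals of all members in the pooled list and in replicate 2. Vha55 had a signal of 225 pooled, 143 in replicate 2 and 82.6 in replicate 3, at ranks of 240, 189 and 367 of 30000 regions. In replicate 3 the a subunit gene Vha100-2 was slightly higher. The Vha55 peak was narrow, at chr3R:12627755-12627944, with its intergenic summit 12 bp upstream of a start and summits of the replicates 6 bp apart. Its summit lay 190 bp upstream of Snx3, a sorting nexin gene that runs the other way from a start 202 bp away.

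The intergenic bases between Vha55 and Snx3 are shown because the strongest member peak has its summit at their Vha55 end. They are chr3R:12627830-12628030 of dm6, read from the minus strand, the strand of Vha55. Capitals mark a match to TATCGATA, the site of the factor DREF, which lies 173.5 bp from the summit and outside the peak, towards Snx3.
Vha55: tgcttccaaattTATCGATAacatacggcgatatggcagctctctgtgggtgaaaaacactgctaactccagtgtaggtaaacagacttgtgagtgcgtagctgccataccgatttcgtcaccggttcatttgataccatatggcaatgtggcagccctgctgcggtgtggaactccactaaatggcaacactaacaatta

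The remaining V1 genes ranged from ERR-eGFP peaks among the highest 1000 regions to no pooled region at all. Vha36-1 (FBgn0022097), for the D subunit of the central rotor stalk, had a signal of 123 pooled, 72.0 in replicate 2 and 52.5 in replicate 3, with ranks of 921, 928 and 1015. Its position in the list was thus close to the same in both replicates. The peak at chr2R:15541319-15541462 had its summit 24 bp upstream of the Vha36-1 start and 48 bp upstream of CG8187, on the opposite strand. Of its paralogues, Vha36-3 had only a low region in replicate 2, with a signal of 10.8, and Vha36-2 had no region in any list.

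Vha44 (FBgn0287825), for the C subunit that joins V1 to V0, differed most between the replicates among members with an optimal peak. It had a signal of 90.9 pooled, 63.2 in replicate 2 and 24.9 in replicate 3, and its rank was 1667 pooled, 1205 in replicate 2 and 5004 in replicate 3. It was among the 2892 highest regions of replicate 2 and not among those of replicate 3, as was Vha68-1. The peak at chr2R:16336524-16336927 had its summit 89 bp upstream of Vha44, in the 5′ UTR of Hmgs, which encodes HMG-CoA synthase of the mevalonate pathway. The summit lay 34 bp upstream of the nearest Hmgs start, so Hmgs was the nearer gene.

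The other stalk subunits had regions below the optimal set. Vha26 (E subunit, a peripheral stalk component) had a signal of 53.3 pooled, 29.7 in replicate 2 and 15.4 in replicate 3, 245 bp upstream of its start and 59 bp upstream of noi, a splicing factor gene. Vha13 (G subunit, the partner of E in that stalk) had 53.3 pooled, 39.6 in replicate 2 and 15.0 in replicate 3, with a summit in its own 5′ UTR. These 2 genes ranked 4661 and 4664 in the pooled list. Vha14-1 (F subunit, part of the rotor with D) had no region within 500 bp of its start in the pooled list or replicate 2, and a signal of 10.6 at rank 24812 in replicate 3. Its paralogue Vha14-2 had none in any list.

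Of the V0 genes, those for the a and c subunits had optimal peaks. Vha100-2 (FBgn0028670) encodes the large a subunit, which carries the proton path. It had a signal of 193 pooled, 104 in replicate 2 and 87.8 in replicate 3, with ranks of 333, 402 and 317. Both replicates placed it within the 402 highest regions, and their summits were 6 bp apart. The peak at chr3R:18397115-18397265 lay 294 bp upstream of the inner of 2 Vha100-2 starts, in an intron of Vha100-2 and in the 5′ UTR of Vti1b, a SNARE gene on the opposite strand whose start was nearer, at 227 bp. A further optimal peak of signal 113 and rank 1076 lay in the same intron and UTR, 505 bp from the inner start and so just outside the promoter. Vha100-2 had no optimal peak with promoters of 200 bp, when a peak counted for the nearest gene only, or when the outer start, the 5′ end of the gene model, was the only one used.

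The 4 paralogues of Vha100-2 were far lower. Vha100-1, known for its role in synaptic vesicles of neurons, had 29.1 pooled, 14.4 in replicate 2 and 14.9 in replicate 3. Vha100-4 had 20.8 pooled, 11.2 in replicate 2 and 12.2 in replicate 3. The lowest replicate value of Vha100-2 was thus well above the highest of either paralogue. Vha100-5 had a region in replicate 3 alone, with a signal of 12.5, and Vha100-3 had none in any list.

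Vha16-1 (FBgn0262736) encodes the proteolipid c subunit of the rotating V0 ring. It had a signal of 96.9 pooled, 73.1 in replicate 2 and 35.2 in replicate 3, at ranks of 1474, 905 and 2407. The peak at chr2R:6632937-6633340 had its summit 49 bp upstream of the start, and it was the 1 main-gene peak with no other coding gene's start within 500 bp. Among its paralogues Vha16-5 came closest, with 64.5 pooled, 44.1 in replicate 2 and 19.5 in replicate 3. Vha16-1 exceeded Vha16-5 within each list, although the replicate 2 value of Vha16-5 lay above the replicate 3 value of Vha16-1. The Vha16-5 summit lay 304 bp upstream of Vha16-5 and 2 bp from a start of CG12299. Vha16-3 had 21.0 pooled, 14.6 in replicate 2 and no region in replicate 3, and Vha16-2 and Vha16-4 had none in any list.

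The d subunit and the accessory subunit were below the optimal set. VhaAC39-1, for subunit d that couples the rotor to the ring, had 59.8 pooled, 32.8 in replicate 2 and 31.0 in replicate 3, in or just past its 5′ UTR. VhaAC39-2 had a region in replicate 2 alone, with a signal of 10.6. VhaAC45, for the accessory membrane subunit Ac45, had 38.1 pooled, 36.6 in replicate 2 and 10.1 in replicate 3. Its replicate 3 summit lay 333 bp upstream of the start, and its replicate 2 summit 9 bp upstream. The 2 summits thus lie apart, although the regions overlap at their edges. VhaAC45RP had 24.5 pooled, 16.2 in replicate 2 and no region in replicate 3.

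**Figure D2:**
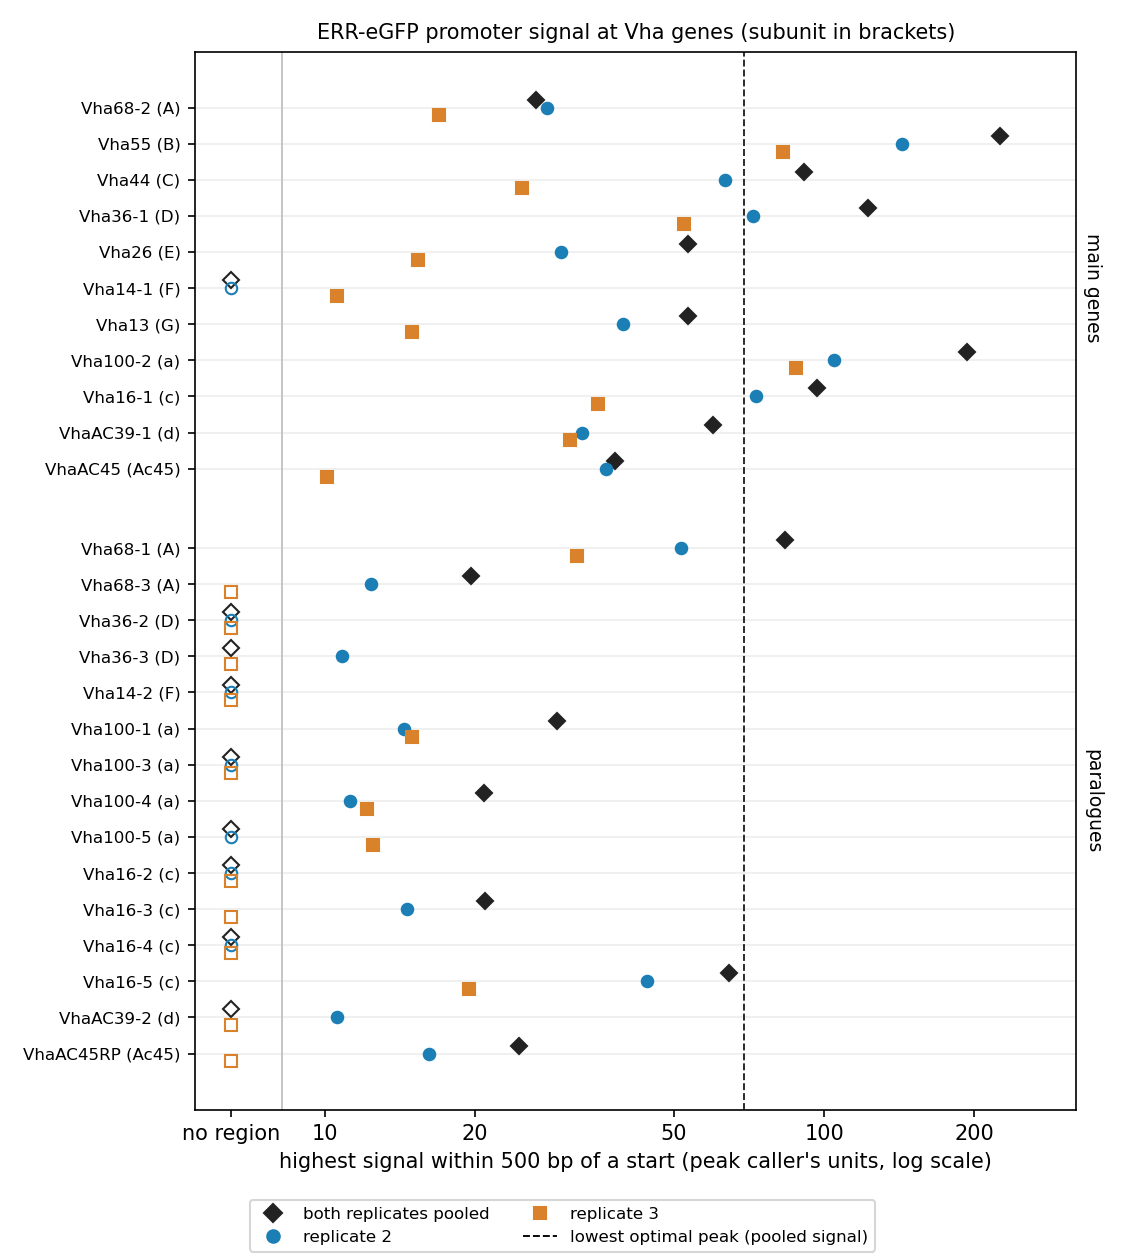
Highest promoter signal (peak caller's units, log scale) of each V-ATPase gene in the pooled list and in replicates 2 and 3; open symbols mark genes with no region within 500 bp of a start, and the dashed line is the lowest pooled signal of the optimal set, 69.2. Vha55 and Vha100-2 lie highest, and 5 paralogues have no region in any list.

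The lowest optimal signal was 69.2. The members nearest to it from above were Vha68-1 with a pooled signal of 83.5 and Vha44 with 90.9, and those nearest from below were Vha16-5 with 64.5 and VhaAC39-1 with 59.8. The −log10 q-value, which the peak caller gives to each region, was 3.89 at all 6 optimal members and also at Vha16-5 and VhaAC39-1. It was 3.49 at both Vha26 and Vha13 and 2.01 at VhaAC45. At Vha100-1 it was 1.07 and at Vha68-2 0.874, and at the other 4 paralogues with a pooled region it lay between 0.452 and 0.731.

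Of the 7 subunits with both a main gene and a paralogue, the main gene had the higher pooled signal in 5, the paralogue in 1 and neither gene a region in 1. The counts were the same in replicate 2. In replicate 3 the main gene was higher in 6 and the paralogue in 1, the change being the low region at Vha14-1. The exception in all lists was the A subunit, with Vha68-1 taken as a paralogue.

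The main genes stood higher in replicate 2 than in replicate 3. Of the 10 main genes with a region in both, 8 had the better rank in replicate 2 (80.0%), as had 10 of the 14 members (71.4%) and 55.2% of 6506 genes in all. The median ratio of the replicate 2 signal to the replicate 3 signal was 1.69 over the 14 members and 1.30 over all genes. These ratios take each gene's highest region in each list, whose summit at some genes, VhaAC45 among them, lay at different positions in the replicates. Over the 14 members the ratio ran from 0.921 at Vha100-4 to 3.62 at VhaAC45. It was 2.65 and 2.54 at Vha13 and Vha44, and 1.19 at Vha100-2. At Vha100-1, with 0.967, as at Vha100-4, the replicate 3 signal was the higher. Signals are not scaled between lists, and the cause of the difference between replicates was not tested. The distance between the replicate summits had a median of 23.5 bp for the 6 members with an optimal peak and 30 bp for all genes with one.

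**Figure D3:**
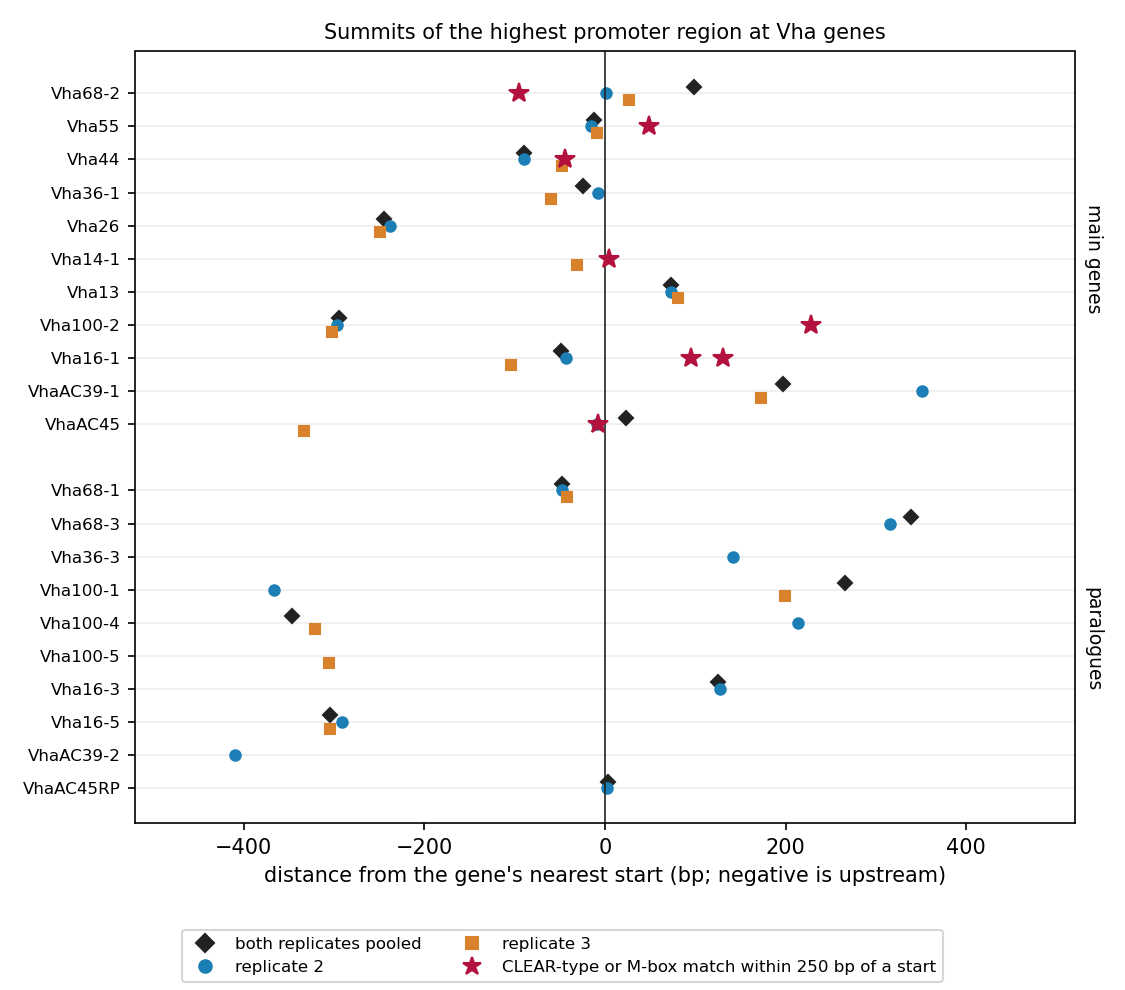
Distance (bp, negative is upstream) from the gene's nearest start of the summit of the highest promoter region, for V-ATPase genes with a region in any list; symbols are the pooled list, replicate 2 and replicate 3, and stars are matches to 2 Mitf-type motifs within 250 bp of a start. Each symbol and star is measured from the start nearest to it, so at genes with several starts their gap need not be a true distance. At Vha68-2 the pooled summit, chr2L:12974463, and the CLEAR-type site, chr2L:12975303-12975310, are nearest to different starts. Summits of Vha55, Vha36-1, Vha16-1, Vha44 and Vha68-1 lie within 104 bp upstream of a start in each list. Those of VhaAC45, VhaAC39-1, Vha100-1 and Vha100-4 are scattered.

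Many of the main genes had a neighbouring gene close by. Another protein-coding start lay within 500 bp of a start in 7 of 11 main genes (63.6%), 4 of 15 paralogues (26.7%) and 30.9% of all genes. Across the genome an optimal peak was present at 27.1% of genes with such a neighbour and 9.73% of genes without one. Within main genes the shares were 4 of 7 with a neighbour and 1 of 4 without, and within paralogues 1 of 4 and 0 of 11. The part of close neighbours in the counts of main genes and paralogues was not tested. The peak was shared with the neighbour at 4 of 5 main genes and at Vha68-1, and at 51.5% of all genes with a peak. In every shared case the neighbour was on the opposite strand, and which gene of a pair the binding relates to cannot be told apart from these lists.

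The sequences around the summits were searched for 8 motifs. Exact matches on both strands were sought to TNAAGGTCA and its core AAGGTCA (ERR), TATCGATA (DREF), GGTCACACT (M1BP), GAGAGAG (GAF), CACGTG (the E-box), TCACGTGA (the CLEAR-type site, which contains an E-box) and TCATGTGA (the M-box). CLEAR-type and M-box sites are known as Mitf sites. Within 100 bp of the summit on either side, 2 of the 6 members with an optimal peak had any match, beside 25.9% of 1710 optimal promoter peaks. Counts over 6 windows are too small to set apart from that share. Vha55 had an M-box 60.5 bp and an E-box 70.5 bp from its summit, and Vha44 a CLEAR-type site 44.5 bp from its summit. None of the 6 held the ERR site, found in 1.17% of the 1710 windows, or its core, found in 3.10%. VhaAC45, below the optimal set, had an M-box 30.5 bp from its pooled summit.

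Around the starts themselves, most main genes held a Mitf-type site and no paralogue did. This search within 250 bp of starts was added after the summit windows had been examined. All annotated starts were searched, so genes with more starts had more sequence searched. Vha68-2 has 5 starts, Vha55 has 3, and Vha44, Vha100-2 and Vha16-1 have 2 each. Among paralogues Vha36-3, Vha100-1 and Vha16-3 have 2 and the others 1. The part of the number of starts in these counts was not tested. A CLEAR-type site or M-box was present at 7 of 11 main genes (63.6%), 0 of 15 paralogues and 200 of 13945 genes (1.43%). The 7 were Vha68-2, Vha55, Vha44, Vha14-1, Vha100-2, Vha16-1 and VhaAC45, of which 4 had an optimal peak and 3 did not. An E-box, alone or inside a CLEAR-type site, was found at 4 main genes (36.4%), 2 paralogues (13.3%) and 8.63% of all genes. Of the 4 main genes only Vha55 had an E-box outside a CLEAR-type site, whereas the 2 paralogues had theirs outside one. DREF matched at 1 main gene, Vha55 (9.09%), and at 10.5% of all genes. The ERR core matched at 1 main gene (9.09%), 187 bp downstream of the Vha36-1 start, and at 697 of all 13945 genes. M1BP sites were at 3 main genes, 1 paralogue and 6.96% of all genes.

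**Figure D4:**
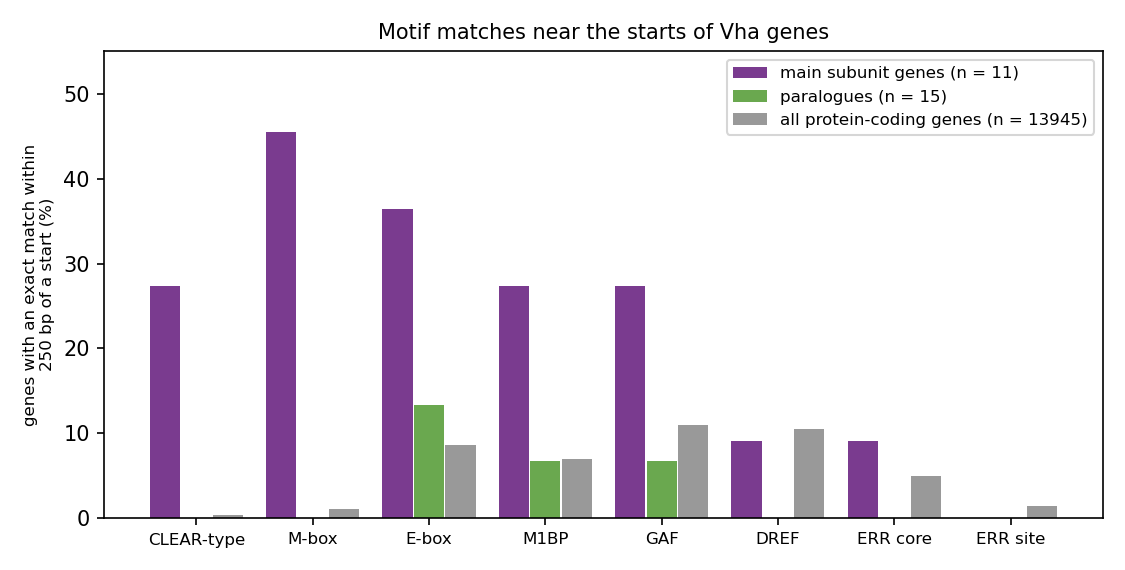
Share of genes (%) with an exact match to each motif within 250 bp of a start, for the 11 main subunit genes, the 15 paralogues and all 13945 protein-coding genes. The M-box was at 45.5% of main genes and 1.10% of all genes, and the CLEAR-type site at 27.3% and 0.344%, with no paralogue holding either.

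Sites of 25 bases at 3 main genes and 2 paralogues are printed to show the Mitf-type letters at main genes and the plain E-box at paralogues. Each is read on the strand of its gene, and capitals mark the matches. The Vha68-2 site (chr2L:12975294-12975318, plus strand) centres 95.5 bp upstream of a start, at a gene with no optimal peak. That start is not the one nearest to the pooled Vha68-2 summit, at chr2L:12974463. The first Vha55 site (chr3R:12627768-12627792, minus strand) holds an M-box next to an E-box under the edge of the strongest member peak. The Vha100-2 site (chr3R:18396687-18396711, minus strand) centres 228.5 bp downstream of the inner start, away from the summit. The E-boxes of Vha14-2 (chr3R:6122765-6122789, plus strand) and VhaAC45RP (chr3R:30166577-30166601, minus strand) are not flanked by the bases of the CLEAR-type site.
Vha68-2, CLEAR-type: aaagctctgTCACGTGAaacgaaag
Vha55, M-box and E-box: gtgacgggTCATGTGAcggCACGTG
Vha100-2, M-box: taagggttTCATGTGAatttatact
Vha14-2, E-box: ttacccaggaCACGTGtgtcggctt
VhaAC45RP, E-box: ttacagaaaCACGTGgcactcgaat

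The V-ATPase genes outside the naming rule mostly had regions below the optimal set. Of 8 such genes, 1 had an optimal promoter peak (12.5%, beside 15.1% of all genes) and 7 had a pooled region. The exception was VhaM9.7-c, a paralogue of the small e subunit, with a signal of 73.6 pooled, 65.0 in replicate 2 and no region in replicate 3. Pooled signals were 55.4 at VhaSFD (the H subunit of V1), 56.6 at VhaM9.7-b and 41.2 at VhaM9.7-a (e subunits), and 35.7 at VhaPPA1-1 and 19.9 at VhaPPA1-2 (the c″ proteolipid). The gene ATP6AP2, also called VhaM8.9 and encoding an accessory membrane protein, had 56.3, and VhaM9.7-d had no region.

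The assembly factors and the known regulator had no optimal peak, beside 15.1% of all genes, and 3 genes are too few to set apart from that share. Rbcn-3A and Rbcn-3B, subunits of the rabconnectin complex that assembles V1 on V0, had pooled signals of 18.1 and 30.7. Mitf had 37.2 pooled, 25.4 in replicate 2 and no region in replicate 3. None of the 3 was among the 2892 highest regions of either replicate, beside 15.7% of all genes in replicate 2 and 14.2% in replicate 3.

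The mitochondrial ATP synthase, the related rotary enzyme, and the lysosome, where the V-ATPase acts, were counted in the same way. ATP synthase genes were the protein-coding genes whose symbols begin with ATPsyn, so subunit genes named otherwise are not covered. The lysosomal genes were a fixed list and not all genes of that organelle. Of 15 ATP synthase genes, 3 had an optimal peak, beside 15.1% of all genes, namely ATPsynF with 152, ATPsynC with 106 and ATPsynE with 79.3. Of 19 lysosomal genes, 4 had one (21.1%). Their signals were 183 at Hexo2 (a hexosaminidase), 98.5 at CtsB and 84.5 at CtsL1 (cathepsins), and 78.4 at Cln7. Vha55 and Vha100-2 were above all 7 of these genes in the pooled list. In replicate 2 Vha100-2 was only slightly above ATPsynF and Hexo2. In replicate 3 Hexo2, with 85.7, stood above Vha55, with 82.6, and slightly below Vha100-2, with 87.8. The place of Vha100-2 also rests on the reach of 500 bp, since with promoters of 200 bp its pooled signal was 65.8, below the optimal set.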

How the data were processed

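The study's 4 dm6 lists of regions, in narrowPeak format, were analysed as deposited: the optimal set of 2892 peaks, and relaxed lists of 30000 regions for the pooled replicates, replicate 2 and replicate 3. Per the notes deposited with the files, the lists come from the replicates' alignments and 1 further file that is no sample here, and the optimal set was thresholded on the irreproducible discovery rate. It was identical to the 2892 highest pooled regions. For the aligner and peak caller, names and versions were not given in the sources used here. Signal values were deposited by the authors as their peak caller wrote them, with no stated scaling between lists. The −log10 q-value of each region was also deposited by the authors. Depth is unknown, since the lists hold no read counts, and so is its effect on each value. Lists on build dm3 were not used here, having no gene models to match.

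Ensembl release 115 gene models (BDGP6.54) and the NCBI release 6 genome were used, with 1-based dm6 coordinates. Gene ends of 26 of 26 members were equal in the RefSeq annotation. A gene was assigned the highest signal among summits within 500 bp of any of its transcript starts, and a peak counted for every gene in reach. Genes with more starts thus had more sequence in reach. Lists were ranked by signal. No test was made, because 1 group of 2 replicates allows none, and neither genes nor paralogues are replicates. The 26 members and the other gene lists and motifs were chosen with earlier results of these data known. Named genes are all members, the other V-ATPase, assembly and Mitf genes, up to 4 ATP synthase and 4 lysosomal genes with the highest optimal signals, and genes sharing a member's peak. Genes beside members outside their promoters were named after their values were seen. Alternatives were promoters of 200 and 1000 bp, any overlap, the higher-signal 50% of peaks, each replicate alone, nearest gene only, the 5′ end of the gene model only, Vha100-1 and Vha68-1 also as main genes, and motif windows reaching 50 or 250 bp from the summit in place of 100 bp. Windows reaching 250 bp from starts were added after seeing the data. Scripts (Python 3.11.15, numpy 2.4.6, pandas 2.3.3, matplotlib 3.10.9) were tested on simulated data.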

Additional observations from a re-analysis of the deposited data

How the results depend on the processing

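The count of V-ATPase genes with an optimal promoter peak was 6 (all genes 15.1%). It was 5 with promoters of 200 bp (all genes 11.4%), 7 with 1000 bp, which added Vha14-1 (17.5%), 6 with any overlap (16.1%), 4 for the nearest gene only (11.5%) and 5 for the 5′ end only, without Vha100-2 (13.4%). The 5 found with the 5′ end only were the main genes Vha16-1, Vha36-1, Vha44 and Vha55 and the paralogue Vha68-1. Only 3 were left in the upper 50% of peaks by signal, all of them main genes (8.16%). With a single replicate it was 4 to 7 (14.2% and 15.7%): Vha44 and Vha68-1 lay outside the highest regions of replicate 3, and Vha16-5 inside those of replicate 2. The count of main genes, 5, was 4 to 5 with a single replicate and 3 under nearest gene only, where Vha100-2 and Vha44 go to Vti1b and Hmgs. With Vha100-1 and Vha68-1 counted as main genes it was 6 of 13, and 0 of 13 paralogues had a peak. The exception of the A subunit therefore rests on taking Vha68-1 as a paralogue. The 1 other V-ATPase gene with a peak was lost without replicate 2, leaving 0, and kept without replicate 3, giving 1. Any region was found at 17 members, and at 16 to 19 with a single replicate. Motif matches at the 6 optimal members depended on the window: 2 within 100 bp of the summit, 1 within 50 bp and 5 within 250 bp, and also 5 within 250 bp of starts. Over all optimal promoter peaks the share was 25.9% within 100 bp, 15.1% within 50 bp and 45.0% within 250 bp of the summit. For the windows around starts, the share of all genes with any of the motifs was not counted, so that count cannot be judged. No paired analysis was possible because there is 1 group.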

Other observations

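Beyond the promoters, 5 optimal peaks lay in or within 1500 bp of V-ATPase genes. One of signal 134 and rank 759 lay 845 bp downstream of the Vha14-1 start, past the end of that short gene and within 500 bp of a start of Gmppa, which encodes a GDP-mannose pyrophosphorylase subunit. Replicate 2 had 1 region there, with a signal of 64.2 and its summit 840 bp from the Vha14-1 start. Replicate 3 had 2 regions, with signals of 62.6 at 959 bp and 40.6 at 760 bp. An intron of Vha16-1 held a second optimal peak of signal 73.3 and rank 2566, 1380 bp downstream of a start. A peak of signal 83.7 past the 3′ end of Vha13 lay in an intron of subdued, a gene of the anoctamin channel family. VhaAC39-2, with no pooled region at its own promoter, had a peak of signal 103 past its 3′ end at a start of unk, which encodes a zinc-finger protein. The fifth was the further Vha100-2 peak described above.

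Vha68-2 had a lower signal in the pooled list, 26.5, than in replicate 2 alone, 27.9. This held for 1.81% of 6352 genes with a region in all 3 lists, and Vha68-2 was the 1 member among them. The ratio of pooled signal to the sum of the replicate signals was 0.592 at Vha68-2, with a median of 0.988 over 14 members and 0.982 over all genes.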
